A study of Macaca fascicularis with 6 samples.

Results

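The cells described here are the *PRG4*-high cells of post-transplant cyiPS-Cart, the cartilage organoids that were made from cynomolgus monkey iPS cells and had spent 4 months in chondral defects of the knee. They were chosen by their *PRG4* reads. A cell with at least 22 reads was called *PRG4*-high and a cell without a read *PRG4*-zero. Of the 320 cells of this sample, 150 were *PRG4*-high, 93 were *PRG4*-zero and 77 lay between them with 1 to 21 reads, out of 7007 distinct cells in the whole series. The cut divides a continuous range and does not define a cell type.

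The organoids carried EGFP under the constitutive CAG promoter at the AAVS1 locus of a single iPS cell line, which is homozygous for its MHC haplotype, and were placed in allogeneic, MHC-mismatched recipients of 3 to 4 years of age. The deposited label of the sample names the recipient's genotype, wild type. By the methods, 3 monkeys of each group were taken at each time and 2 sites of a monkey were combined, and whether the library holds all of these monkeys is not given in the sources used here. The cells set beside them were pre-transplant cyiPS-Cart cells, which carry the EGFP reporter gene, and cells of wild-type monkeys of 3 to 4 years, namely from articular cartilage that was left intact (cyAC) and from fibrous tissue of defects without a graft (cyFT). All cells had been digested with Liberase, stained with hashtags, sorted as live cells and read by TAS-Seq, a bead-based single-cell method. The digestion medium differed. That of pre-transplant cells held TGF-β1, GDF5 and BMP2, and none of these is listed for post-transplant and cyAC cells. The part of this in differences between samples was not tested. Because 1 library of 1 sample holds all the *PRG4*-high cells, no test was possible and no p value is given. Differences are log2 ratios of mean CPM + 1, where CPM is the reads of a gene per 1000000 reads of a cell, averaged over the cells of a class. The 95% intervals (exact Clopper-Pearson for shares of cells) cover counting error only.

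*PRG4* encodes lubricin, a large mucin-like glycoprotein that coats the joint surface and lowers friction between the sliding cartilages. In articular cartilage it is made by chondrocytes of the superficial zone, and in the joint also by cells of the synovial lining. Its transcription in chondrocytes is known to respond to TGF-β, to cAMP signaling through PKA and CREB, and to fluid flow over the joint surface. Chondrocytes of all zones share the matrix of type II collagen and aggrecan that SOX9 drives, whereas type I collagen marks fibrous tissue and fibrocartilage.

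Within the *PRG4*-high cells, *PRG4* spread widely. The reads per cell ran from 22 to 3145 with a median of 114, and the CPM, ordered on its own, from 144 to 17388 with a median of 1283. The 15 cells with most reads held 41.1% of the *PRG4* reads of the class, and 5 cells of the sample had over 1000 reads. The highest cells below the cut had 20, 20 and 21 reads and the lowest above it 22, 23 and 25, and 31 cells had 22 to 43 reads against 15 with 11 to 21. Of the 77 intermediate cells, 27 had a single read, and all cells below the cut together held little of the *PRG4* of the sample, 99.0% of which lay in *PRG4*-high cells. There was thus no gap at the cut.

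**Figure D1:**
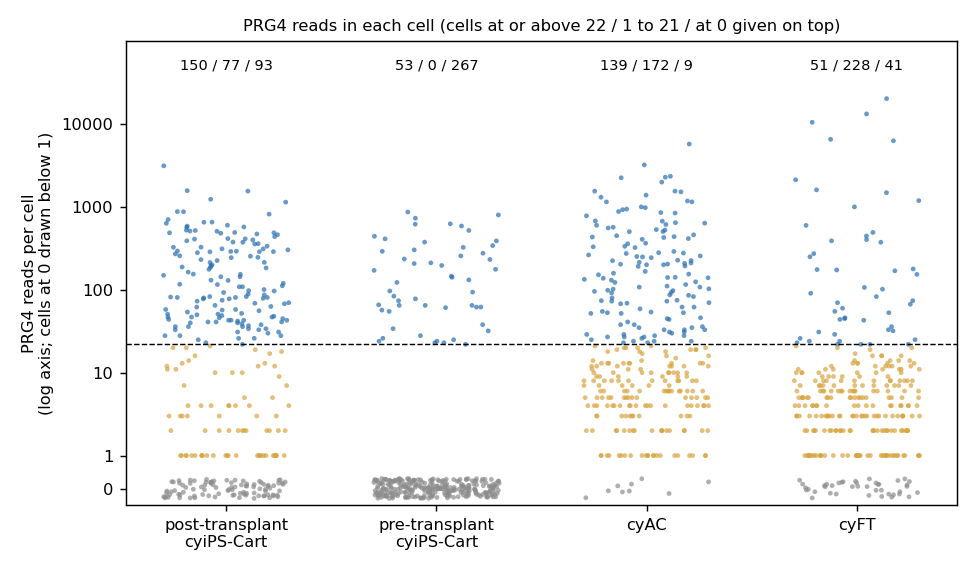
*PRG4* reads of each cell (1 point per cell, log axis, cells at 0 drawn below 1) in 4 samples of 320 cells each. The broken line is the cut at 22 reads. Blue points are cells at or above it, orange points cells with 1 to 21 reads and grey points cells at 0, with their numbers on top. Post-transplant cyiPS-Cart had 150 cells at or above the cut, cyAC 139, pre-transplant cyiPS-Cart 53 and cyFT 51, and pre-transplant cyiPS-Cart had none with 1 to 21 reads.

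The same cut took 46.9% of post-transplant cells (41.3 to 52.5), 43.4% of cyAC cells (37.9 to 49.1), 16.6% of pre-transplant cells (12.7 to 21.1) and 15.9% of cyFT cells (12.1 to 20.4), where the median cell held 80335.5, 29699, 58413.5 and 27499.5 reads. Other measures gave another order. A *PRG4* read was found in 70.9%, 97.2%, 16.6% and 87.2% of these cells, and *PRG4* took 1289, 4986, 538 and 6419 of each 1000000 reads summed over the cells of the sample. The cyFT sum leaned on few cells. Its highest cell held 20373 of the 71175 *PRG4* reads of cyFT, while the median cyFT cell with a read held 5. In undifferentiated cyiPSCs, which should lack lubricin, 5 of 2500 cells (0.200%, 0.0650 to 0.466) had a read at a median depth of 143075. In that library, which also holds the pre-transplant cells, the lowest count above 0 was 22, whereas counts began at 1 in the post-transplant library. The authors set low counts to 0 in genes with a high maximum, and the part of this step in the different lowest counts was not tested. Thinned to 42133 reads per cell, 56 of 68 intermediate post-transplant cells still showed a *PRG4* read, and 32 shallower cells were left out. So did 144 of 144 *PRG4*-high cells, which the cut at 22 reads all but fixed in advance. These values cover post-transplant cells only and do not address the depth of the other samples.

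The classes differed in depth. The *PRG4*-high cells had a median of 88232 reads (quartiles 63480 and 133222), the intermediate cells 77671 and the *PRG4*-zero cells 64430 (48387 and 93893). As many cells taken by the highest *PRG4* CPM instead had a median of 84548.5 reads. Genes with a read per cell followed the same order, with medians of 2839, 2577 and 2465. The share of mitochondrial reads had medians of 1.68%, 1.62% and 1.82% and means of 1.77%, 1.98% and 2.13%. A limit of 3.11% on this share left 141 of the 150 *PRG4*-high and 78 of the 93 *PRG4*-zero cells. The scrublet caller marked 4 *PRG4*-high, 3 intermediate and 1 *PRG4*-zero cell as doublets. Because of the difference in depth, the main genes are also given among the 73 *PRG4*-high and 49 *PRG4*-zero cells between the 25th and 75th percentile of depth of the sample, whose medians were 80414 and 78223 reads and are called depth-matched below.

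The *PRG4*-high cells were cells of the graft and carried the chondrocyte markers. *GFP-polyA*, the transcript of the transgene, had reads in all 150 *PRG4*-high and all 93 *PRG4*-zero cells, at means of 5816 and 5779 CPM. *COL2A1*, type II collagen, had reads in all 150 (97.6 to 100%), as had *ACAN*, *COL9A1*, *COL11A1*, *COL11A2* and *HAPLN1*, and *SOX9* in 142 (94.7%, 89.8 to 97.7). Defining markers of immune and endothelial cells were at or near 0, with the exception of some T cell genes. *PTPRC* and *CD68* had a read in 2 *PRG4*-high cells each, *CD14*, *CSF1R* and *CD3E* in 1 each, *PECAM1* in 5, and *VWF* and *CDH5* in none, which allows a share of cells with a read of up to 2.43% by the exact interval and does not limit the share that expresses them. No gene of the macrophage and pan-immune, T and NK cell, endothelial and mural or osteoblast and adipocyte lists reached 50 CPM in either class. Of the T and NK cell genes, *CD2* had reads in 30.7% of *PRG4*-high and 31.2% of *PRG4*-zero cells and *CD3D* in 22% and 24.7%, at means of 7.30 and 10.4 CPM and 3.54 and 7.37 CPM, and 7 of 150 and 4 of 93 cells had reads of at least 3 genes of that list. Genes listed for the synovial lining and sublining were present in both classes. At least 3 of the 12 had reads in 73.3% of *PRG4*-high and 46.2% of *PRG4*-zero cells, with summed levels of 1050 CPM (21.5 to 3892) and 851 CPM (0 to 2952) on average. *FAP* (482 against 389 CPM), *CD55* (233 against 163 CPM), *PDPN* (204 against 160 CPM) and *THY1* (73 against 102 CPM) reached 50 CPM, and *CLIC5*, which marks the lining, had a read in no *PRG4*-high and 1 *PRG4*-zero cell. The part of these genes' cell types in the results was not tested.

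At 50 CPM or more in either class, 2992 genes other than *PRG4* were measured. Their median log2 ratio was -0.06. A mean at least 2-fold higher in *PRG4*-high than in *PRG4*-zero cells was found for 46 genes, which is 1.54% of those measured, and a mean at least 2-fold lower for 94, which is 3.14%. With TMM factors, which rescale the summed counts of the classes, 40 were higher and 53 lower. Below 100 CPM in both classes lay 32 of the 46 and 74 of the 94 (69.6% and 78.7%), against 51.2% of all measured genes. A ratio above 0 was found for 43.4% of all measured genes and one below 0 for 56.6%, and the counts over gene lists given here are to be read beside these shares. At 500 CPM or more in either class, the higher genes included *DLK1* and *IER3*, and the lower ones were *COL1A1* and *IFI6*.

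**Figure D2:**
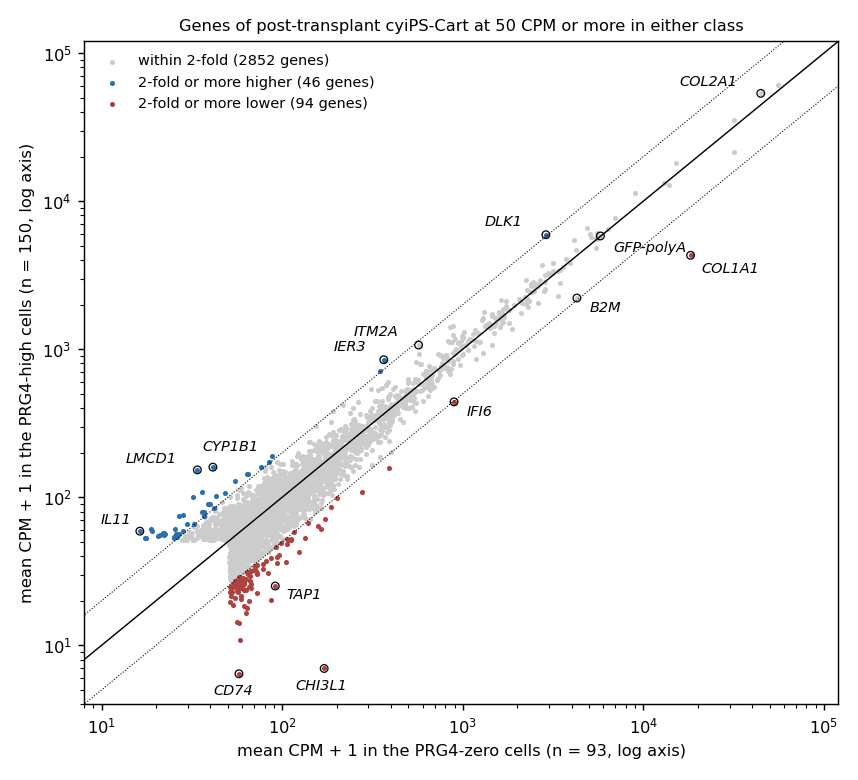
Mean CPM + 1 of each gene in the 93 *PRG4*-zero cells (x, log axis) against the 150 *PRG4*-high cells (y, log axis) of post-transplant cyiPS-Cart, for the 2992 genes at 50 CPM or more in either class. The solid line marks equal means and the dotted lines a 2-fold difference. Blue points are the 46 genes at least 2-fold higher, red points the 94 at least 2-fold lower, most of both near the 50 CPM floor, and *COL2A1* and *GFP-polyA* lie close to the solid line.

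*DLK1* stood out among the more abundant transcripts. It encodes a membrane protein of the Notch ligand family that lacks the domain of the canonical ligands and is known from fetal tissues and precursor cells. Its mean was 5929 CPM in *PRG4*-high, 3549 in intermediate and 2884 in *PRG4*-zero cells, a log2 ratio of 1.04. Reads were found in 89.3% of *PRG4*-high cells (83.3 to 93.8), 72.7% of intermediate cells (61.4 to 82.3) and 60.2% of *PRG4*-zero cells (49.5 to 70.2). Thinning to equal depth left 88.9% and 61.8% of the kept cells of the outer classes with a read. Single cells overlapped broadly, with quartiles of 1892 and 8892 CPM in *PRG4*-high cells against 0 and 3767 in *PRG4*-zero cells, and a highest value of 29500 against 27728. Among depth-matched cells the log2 ratio was 0.71.

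The chondrocyte identity genes were mostly a little higher in *PRG4*-high cells. Of 18 genes listed, 13 were measured, 12 of them had a ratio above 0 and none passed 2-fold in either direction, with a median log2 ratio of 0.26 against -0.06 over all genes. *MATN3*, which encodes the matrix adaptor matrilin 3, had means of 419, 289 and 216 CPM in *PRG4*-high, intermediate and *PRG4*-zero cells, and reads in 68.7% (60.6 to 76.0), 49.4% and 38.7% (28.8 to 49.4) of them. Its log2 ratio was 0.95, or 0.69 among depth-matched cells. *SNORC*, a small transmembrane proteoglycan of chondrocytes, stood at 1433, 1057 and 884 CPM with a log2 ratio of 0.70, and at 0.48 among depth-matched cells. *SOX9* stood at 796, 696 and 587 CPM. The abundant matrix genes differed less. *COL2A1* had a mean of 53460 CPM against 44694 and medians of 51716 and 47773, a log2 ratio of 0.26, and *COL9A1* had one of 0.34. *ACAN*, at 5512 and 5516 CPM, and *HAPLN1*, at 2416 and 2365, were nearly level. No *COL2A1* read was found in 6 *PRG4*-zero cells, and the quartiles of *COL2A1* were 45200 and 60599 CPM in *PRG4*-high against 30199 and 60362 in *PRG4*-zero cells. Without the cells with *COL1A1* reads its log2 ratio was 0.05.

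The secreted factors of cartilage gave 12 measured of 15 listed, 9 above 0 and 1 past 2-fold, with a median of 0.20. *ITM2A*, a membrane protein known from early chondrocyte differentiation, had means of 1066, 634 and 568 CPM, and reads in 95.3% of *PRG4*-high (90.6 to 98.1), 81.8% of intermediate and 67.7% of *PRG4*-zero cells (57.3 to 77.1). Its median was 877 CPM in *PRG4*-high and 255 in *PRG4*-zero cells, and its log2 ratio of 0.91 was 0.74 among depth-matched cells. *SERPINA1* (log2 ratio 0.42), the calcification inhibitor *MGP* (0.41), *SERPINA3* (0.35) and *UCMA* (0.39) were higher by less, and *SCRG1* (0.03) was nearly level. The member past 2-fold, *CHI3L1*, had a log2 ratio of -4.61 that rested on 3 *PRG4*-high and 6 *PRG4*-zero cells with reads. The small leucine-rich proteoglycans, which regulate collagen fibrils, had 8 of 10 measured members above 0, none past 2-fold and a median of 0.24, with *DCN* at 0.42, *PRELP* at 0.39 and *BGN* at -0.12.

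*PRG4* was not accompanied by the list of superficial zone and lubrication genes as a whole. Of 20 listed, 10 were measured, 6 were above 0, none passed 2-fold and the median was 0.12. *CILP*, the cartilage intermediate layer protein, had means of 812, 835 and 552 CPM and reads in 66.7%, 63.6% and 40.9% of *PRG4*-high, intermediate and *PRG4*-zero cells, a log2 ratio of 0.55. The complement regulator *CD55* stood at 0.51 and *THBS4* at 0.39. The transcription factor gene *ERG* (79 against 72 CPM, 0.12) and *HAS2*, a hyaluronan synthase (93 against 79 CPM, 0.24), differed little, while *CLU*, the secreted chaperone clusterin, stood at -0.35 and *DKK3* at -0.99. *GDF5*, *CREB5*, *VCAM1* and *TPPP3* did not reach 50 CPM. *CREB5* had reads in 8% of *PRG4*-high and 7.53% of *PRG4*-zero cells.

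The TGF-β list held ligands, latency proteins, receptors, Smads and target genes. Of 21 listed, 15 were measured, 10 were above 0, 1 passed 2-fold upward and 1 downward, with a median of 0.15. The inhibitory Smad gene *SMAD7* had means of 118, 74 and 65 CPM, reads in 56.7% (48.3 to 64.7) against 38.7% (28.8 to 49.4) of cells and a log2 ratio of 0.86, which was 0.71 among depth-matched cells. *PMEPA1*, another feedback inhibitor, stood at 0.85 but turned to -0.55 among depth-matched cells. The corepressor gene *TGIF1* stood at 0.56, the decoy receptor gene *BAMBI* at 0.46 and *LTBP3*, which holds the latent ligand, at 0.67.

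Ligands, receptors and the transducing Smad were not higher as a group. *TGFB1* stood at 0.36, *TGFB3* at -0.21 and *TGFB2* at -1.01, the last with 48, 71 and 97 CPM in *PRG4*-high, intermediate and *PRG4*-zero cells and reads in 34.0% and 39.8% of the outer classes. *TGFBR2* (0.02), *TGFBR3* (0.15), *SMAD3* (-0.07) and the corepressor gene *SKIL* (0.01) were nearly level, and *CCN2*, a target also of mechanical signaling, stood at -0.32. Of related genes chosen after their values were seen, *KLF10*, first described as a gene induced early by TGF-β, had means of 534, 415 and 310 CPM (0.78), *GADD45B* 1400, 1110 and 846 (0.73) and the matrix protein gene *TGFBI*, of the fibrous matrix list, 923, 626 and 573 (0.69). *KLF10* and *GADD45B* were taken up only because their log2 ratio was at least 0.6 in size at 500 CPM or more. BMP and GDF genes had 4 of 9 measured members above 0 and a median of -0.05. *ID3*, a target of BMP signaling, had means of 133, 180 and 228 CPM (-0.78), *ID1* stood at 0.18 and *BMP2* at 0.30.

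**Figure D3:**
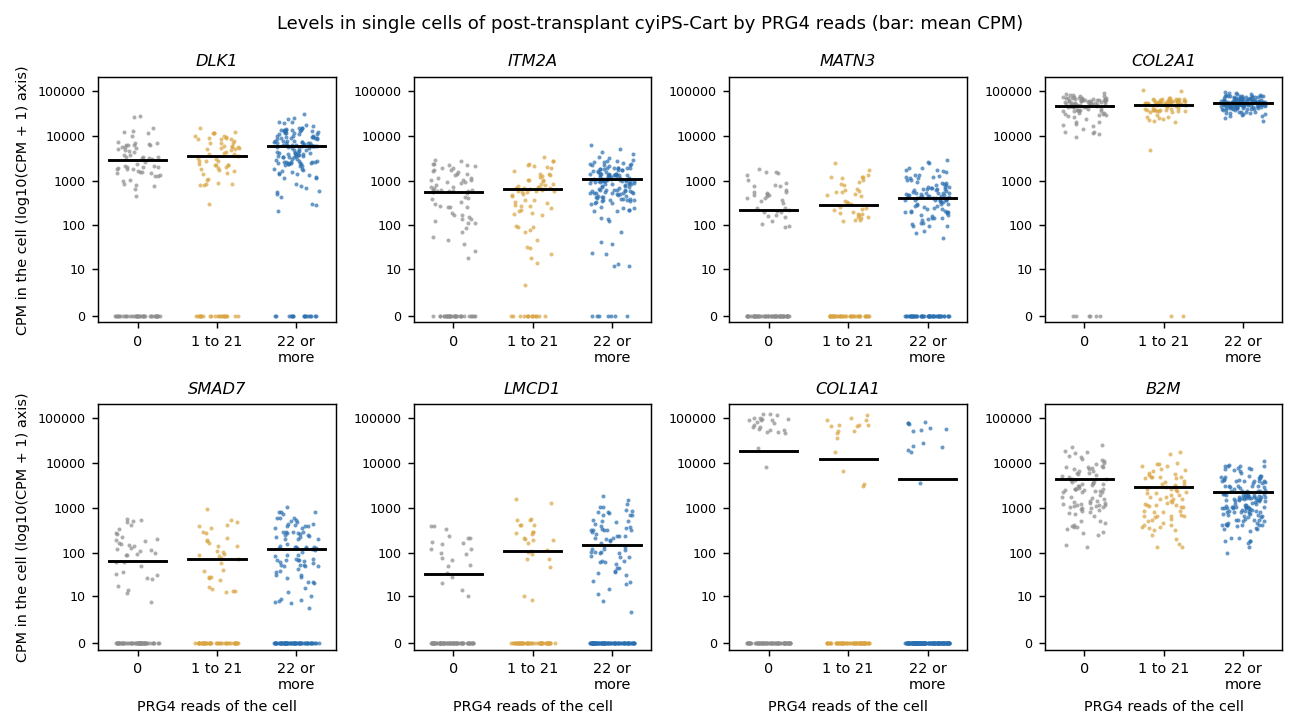
CPM in each post-transplant cell (1 point per cell, log10(CPM + 1) axis) for 8 genes, with cells grouped by *PRG4* reads into 0 (93 cells), 1 to 21 (77) and 22 or more (150). Black bars are mean CPM. The means of *DLK1*, *ITM2A*, *MATN3*, *COL2A1*, *SMAD7* and *LMCD1* are ordered upward and those of *COL1A1* and *B2M* downward, while the cells of the 3 ranges overlap for every gene.

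Of the genes for cAMP, CREB and the salt-inducible kinases, 5 of 23 listed were measured, 4 were above 0 and none passed 2-fold, with a median of 0.42. *NR4A1*, an orphan nuclear receptor gene that cAMP induces within minutes to hours, had means of 435.5, 498 and 263 CPM and a log2 ratio of 0.72. The PKA regulatory subunit gene *PRKAR2B* stood at 0.62, the phosphodiesterase gene *PDE4B* at 0.42 and *PRKACB*, a catalytic subunit gene, at -0.25. *SIK2* (28 against 13 CPM) and *SIK3* (36 against 19 CPM) stayed below the 50 CPM floor and had reads in 21.3% and 31.3% of *PRG4*-high cells and 16.1% and 24.7% of *PRG4*-zero cells. Their log2 ratios were 1.05 and 0.90. With *SIK2*, 5 cells held 47.2% of the summed CPM of the *PRG4*-high and 75.5% of that of the *PRG4*-zero class, with *SIK3* 47.6% and 56.1%. The intervals of the shares overlapped (15.1 to 28.8 and 9.32 to 25.2 for *SIK2*, 24.0 to 39.4 and 16.4 to 34.8 for *SIK3*). Among depth-matched cells *SIK2* stood at 2.36 and *SIK3* at 1.31.

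Immediate early genes were higher in part. Of 19 listed, 11 were measured, 10 were above 0 and 1 passed 2-fold, with a median of 0.37. *IER3*, a stress-responsive early gene, had means of 847, 835 and 364 CPM and reads in 60.7% (52.4 to 68.5), 48.1% and 39.8% (29.8 to 50.5) of cells, a log2 ratio of 1.22 or 0.90 among depth-matched cells. Here the intermediate cells lay at the level of the *PRG4*-high cells. *FOSB* stood at 0.81 and *EGR1* at 0.64, whereas the far more deeply counted *FOS* (6045 against 5569 CPM) and *JUN* (1737 against 1608 CPM) stood at 0.12 and 0.11. The cells had been kept in enzyme at 37 °C before they were read, and dissociation of this kind is known to induce these genes. Both classes went through it together, and its part in the result was not tested.

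Clock and hormone response genes differed less. The circadian list had 7 of 12 measured genes above 0 and a median of 0.12. *CIART*, a repressor of the clock, had means of 102, 93 and 55 CPM (0.88), *CRY2* stood at 0.61 and *BHLHE40* at 0.51, while *PER1*, *PER2* and *NR1D1* stood at -0.03, -0.02 and 0.20. Glucocorticoid-responsive genes had a median of 0.09 with *DUSP1* at 0.46 and *SGK1* at 0.44. The metallothionein gene *MT1E* stood at 0.39. Hypoxia and glycolysis genes had 13 of 19 above 0 and a median of 0.10, led by the glycolytic regulator *PFKFB3* (234, 215 and 139 CPM, 0.74).

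Among the 15 genes with the largest positive ratios and reads in 25% or more of the cells of a class, *LMCD1* came first. It encodes a LIM-domain transcriptional cofactor. Its means were 152, 110 and 33 CPM, and reads were found in 46.0% of *PRG4*-high (37.8 to 54.3), 33.8% of intermediate and 23.7% of *PRG4*-zero cells (15.5 to 33.6), a log2 ratio of 2.17 that was 1.59 among depth-matched cells. *IL11*, a cytokine gene of the IL-6 family that TGF-β is known to induce, followed with 58, 47 and 15 CPM, reads in 33.3% and 16.1% of the outer classes and a log2 ratio of 1.86. The other 13 ranged from 1.69 for the exocyst subunit gene *EXOC7* to 1.27 for *EPS8L2* and did not fall into one of the lists. They included the transcription factor gene *FOXA3* (1.64), the heme oxygenase gene *HMOX2* (1.62), the RNA-binding protein gene *KHSRP* (1.59), the lysosomal phosphatase gene *ACP2* (1.43) and the nuclear import receptor gene *TNPO3* (1.42). None of these 13 exceeded 100 CPM in either class. A part of the summed CPM lay in few cells. Over the 15 genes, the 5 highest cells held 28.8% to 44.1% of it in the *PRG4*-high class and 49.6% to 79.5% in the *PRG4*-zero class. For *LMCD1*, they held 28.8% in the *PRG4*-high and 51.1% in the *PRG4*-zero class, and for *IL11* they held 37.9% and 73.4%. *CYP1B1* (159 against 40 CPM, 1.95) and *CTHRC1* (108 against 35 CPM, 1.61), chosen after their values were seen, had ratios within or above their range but reads in under 25% of the cells of each class.

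In the IGF system, 8 of 15 listed genes were measured, 6 were above 0 and 1 passed 2-fold in each direction, with a median of 0.21. *PAPPA2*, a protease that frees IGFs from their binding proteins, had means of 89, 63 and 39 CPM and reads in 39.3% (31.5 to 47.6) against 14.0% (7.66 to 22.7) of cells, a log2 ratio of 1.18. *IGFBP5*, which encodes one of those binding proteins, had means of 47, 43 and 106 CPM (-1.15), and 18.7% and 20.4% of the outer classes had a read.

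The fibrous matrix list held the largest difference in abundant transcripts. *COL1A1*, the α1 chain of type I collagen, had means of 4304, 12178 and 18260 CPM in *PRG4*-high, intermediate and *PRG4*-zero cells, a log2 ratio of -2.08. In the deposited matrix its lowest count above 0 was 497 reads. The authors' step that sets low counts to 0 in genes with a high maximum applies to such genes, so a cell without *COL1A1* reads here may have had some before it. Reads were found in 14 of 150 *PRG4*-high cells (9.33%, 5.20 to 15.2), 17 of 77 intermediate cells (22.1%, 13.4 to 33.0) and 23 of 93 *PRG4*-zero cells (24.7%, 16.4 to 34.8). Seen from the other side, 14 of the 54 cells with *COL1A1* reads were *PRG4*-high (25.9%, 14.96 to 39.7), against 136 of the 266 without (51.1%, 44.9 to 57.3). *COL2A1* reads were present in 47 of the 54. *COL1A2*, the partner chain, had reads in 88.0%, 93.5% and 84.9% of the cells and means of 21486, 30522 and 31833 CPM (-0.57). Of the 17 measured genes of the list, 5 were above 0, only *COL1A1* passed 2-fold and the median was -0.16. *COL3A1* (0.16), *FN1* (0.02) and *COL5A1* (0.09) were nearly level, *ELN* stood at -0.54, *COL14A1* at -0.61 and *THY1* at -0.47.

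The list with the lowest median was that of MHC and antigen presentation. All 6 of its measured genes were below 0, against 56.6% of all genes, and 4 passed 2-fold, against 3.14%. The median of -1.43 lies between *IFI6* and *ISG15*. *B2M*, the light chain of MHC class I, had reads in every cell and means of 2214, 2923 and 4283 CPM (-0.95). Its median was 1521 CPM in *PRG4*-high cells (quartiles 770 and 2871) and 2453 in *PRG4*-zero cells (1068 and 5630), and the highest cell had 11076 and 25467 CPM. The class I genes *HLA-F* (853 against 1179 CPM, -0.47) and *Mafa-B* (1069 against 1453 CPM, -0.44), added after their values were seen, were lower by less. *TAP1*, a subunit of the peptide transporter, stood at -1.87 and the interferon-induced *IFI6* at -1.02. *CD74*, the invariant chain (-3.17), and *ISG15* (-1.85) had reads in 3 and 9 *PRG4*-high cells and 5 and 8 *PRG4*-zero cells, too few for more than a description.

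These differences were also taken without the cells with *COL1A1* reads and among depth-matched cells. Of the 11 cells with *CD74* reads, 9 also had *COL1A1* reads, as had 10 of the 13 with *CHI3L1* and 10 of the 24 with *ISG15*. Without the cells with *COL1A1* reads, 136 *PRG4*-high and 70 *PRG4*-zero cells remained and gave log2 ratios of -0.40 for *B2M*, -0.94 for *TAP1*, -0.47 for *IFI6* and -0.40 for *CD74*. There *ISG15* stayed more than 2-fold lower. Among depth-matched cells *TAP1* stood at -1.74 and *CD74* at -1.10, still past 2-fold, *B2M* at -0.52, *IFI6* at -0.22 and *ISG15* at 0.19. With both restrictions, which left 68 *PRG4*-high and 37 *PRG4*-zero cells, *B2M* stood at 0.01, *HLA-F* and *Mafa-B* at 0.04, *IFI6* at 0.28, *TAP1* at 0.71 and *ISG15* at 1.84. Of the 90 named genes with a ratio above 0, 10 lay below 0 under both restrictions, and of the 67 below 0, 20 lay above it. *DLK1* stood at 0.59, *ITM2A* at 0.59, *MATN3* at 0.37, *SMAD7* at 0.97, *IER3* at 0.80 and *LMCD1* at 1.73, while *PMEPA1* stood at -0.84, *SPP1* at -0.83, *CARS1* at -0.59, *BMP2* at -0.46 and *DKK3* at -0.05.

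**Figure D4:**
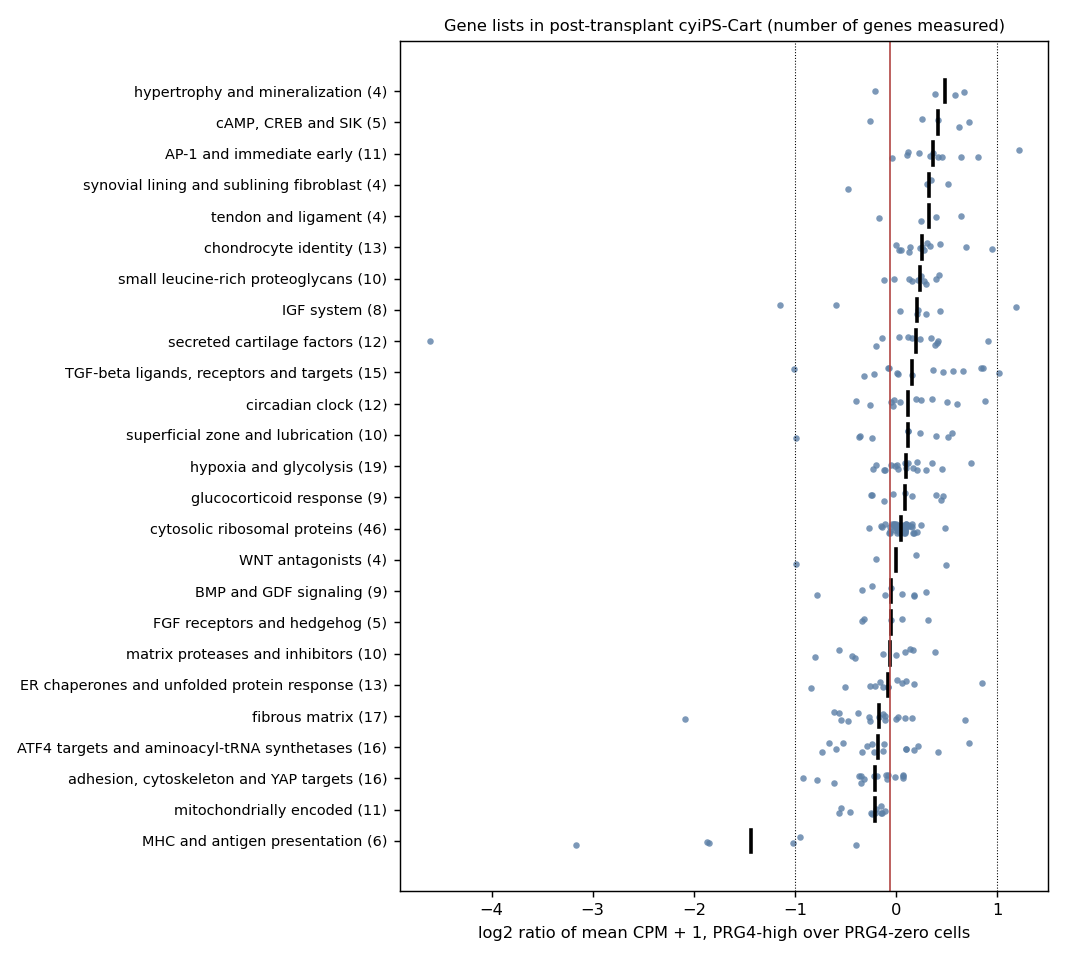
Log2 ratios of mean CPM + 1, *PRG4*-high over *PRG4*-zero cells, for each measured gene (points) of the lists with at least 4 measured genes, with the number measured in parentheses. Black bars are list medians, the red line is the median of all 2992 genes (-0.06) and dotted lines mark a 2-fold difference. The list of MHC and antigen presentation has its median at -1.43, and the medians of the other lists lie between -0.21 and 0.48.

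The 15 genes with the most negative ratios were taken among those with reads in 25% or more of the cells of a class. This left out *CHI3L1*, *CD74*, *COL1A1* and *ISG15*. Among these 15, apart from *TAP1*, were *LMO7* (16, 40 and 62 CPM, -1.93), *MXRA5*, an extracellular matrix protein gene (22, 38 and 72 CPM, -1.69), *PPP2R5E*, a regulatory subunit gene of protein phosphatase 2A (42, 59 and 122 CPM, -1.53), *ANXA7* (60, 95 and 163 CPM, -1.44) and *PLTP*, the phospholipid transfer protein (107, 157 and 274 CPM, -1.35). *MXRA5* had reads in 26.7% of *PRG4*-high and 44.1% of *PRG4*-zero cells and *PLTP* in 54.0% and 67.7%. The other 9, such as *OPA1* of mitochondrial fusion (-1.46), *CDC16* of the anaphase-promoting complex (-1.47) and *LSM5* of the spliceosome (-1.32), belonged to no list.

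The remaining lists had the following values. Mitochondrially encoded transcripts were lower for 11 of 11 genes, none past 2-fold, with a median of -0.21 and *COX1* at -0.56. Among depth-matched cells without *COL1A1* reads *COX1* stood at -0.06 and *COX2* at 0.24. Without cells over the mitochondrial limit *COX3* stood at 0.11, while *ND4L* stayed below 0 under every alternative. Adhesion, cytoskeleton and YAP target genes had 13 of 16 below 0 and a median of -0.20, with *LGALS1* at -0.92, *VIM* at -0.19 and *CCN1* at 0.07. Aminoacyl-tRNA synthetase and ATF4 target genes had a median of -0.18 (10 of 16 below 0), chaperones of the endoplasmic reticulum one of -0.08 with *HSPA5* at -0.50, matrix proteases and inhibitors one of -0.06 with *CTSK* at -0.81 and *CTSD* at 0.39, FGF receptor and hedgehog genes one of -0.05 and WNT antagonists one of -0.00 with *FRZB* at -0.20. Cytosolic ribosomal protein genes had a median of 0.05 over 46 genes. Of hypertrophy genes, 4 of 15 were measured, 3 were above 0 and the median was 0.48, with *PTH1R* at 0.67 (54 against 34 CPM) and *SPP1* at 0.39, and *COL10A1*, *MMP13* and *RUNX2* stayed below 50 CPM. Of cycling genes, *TYMS* (-0.96) and *PCNA* (-1.01) were measured, and *MKI67* had reads in 8 *PRG4*-high cells and 1 *PRG4*-zero cell. The tendon and ligament genes had a median of 0.32 and those of the synovial lining and sublining one of 0.33, over 4 genes each.

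Within the *PRG4*-high class, the rank correlations with *PRG4* were weak among the named genes. Across the 150 cells, Spearman's rho between the CPM of *PRG4* and that of the 157 other named genes lay between -0.29 for *PDPN* and 0.15 for *RPL5*, as a description over cells that share 1 library and differ in depth. *DLK1* gave 0.12, with means of 5131 CPM in the 75 cells with less *PRG4* and 6727 in the 75 with more. *ITM2A* (0.05), *SMAD7* (0.00), *MATN3* (-0.13) and *COL2A1* (-0.09) lay between these limits, and *LMCD1* had the lower mean in the cells with more *PRG4* (197 and 106 CPM, rho -0.20).

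The same cut was then set within the other samples, which share no cells with post-transplant cyiPS-Cart. In pre-transplant cyiPS-Cart, 53 *PRG4*-high and 267 *PRG4*-zero cells were compared, with medians of 65570 and 57505 reads. Of the post-transplant genes past 2-fold that were measured there, 17 of 34 higher genes were above 0, against 42.3% of all 2542 genes measured in both, and 29 of 46 lower genes were below 0, against 57.7%. All 610 *PRG4*-high and 2917 *PRG4*-zero cells of the larger pre-transplant matrix gave 16 of 32 against 33.8%, and 28 of 42 against 66.2%. In cyFT (51 and 41 cells, medians of 36634 and 15648 reads) 19 of 33 higher genes were above 0, against 49%, and 31 of 55 lower genes below 0, against 50.99%. Since cyAC had 9 cells at 0, its 139 *PRG4*-high cells were set against the 181 below the cut (29206 and 30778 reads), which gave 12 of 32 against 48.6% and 21 of 38 against 51.4%. These shares of members are set beside those of all genes as a description, with no test.

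Single genes gave the following values. *COL1A1* was lower in *PRG4*-high cells of each sample, with means of 1137 against 7091 CPM in pre-transplant cyiPS-Cart (-2.64), 192 against 2583 in cyAC (-3.75) and 8388 against 35460 in cyFT (-2.08). *CILP* was higher in each, with log2 ratios of 2.53, 0.61 and 2.18. *ITM2A* stood at 0.78 (148 against 86 CPM), 0.25 and 1.23, but at -0.03 in cyFT when all 269 cells below the cut were taken. *DLK1* stood at 0.55 in pre-transplant cyiPS-Cart (6761 against 4607 CPM) and 0.61 in its larger matrix, and stayed below 50 CPM in cyAC and cyFT. *LMCD1* stood at 0.30 before transplantation, 0.05 in cyFT and -0.56 in cyAC, and *IER3* at -0.23, 0.94 and -0.00 in the same order. *B2M* was not lower in *PRG4*-high cells of pre-transplant cyiPS-Cart (0.12) or cyFT (0.15) and stood at -0.31 in cyAC.

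**Figure D5:**
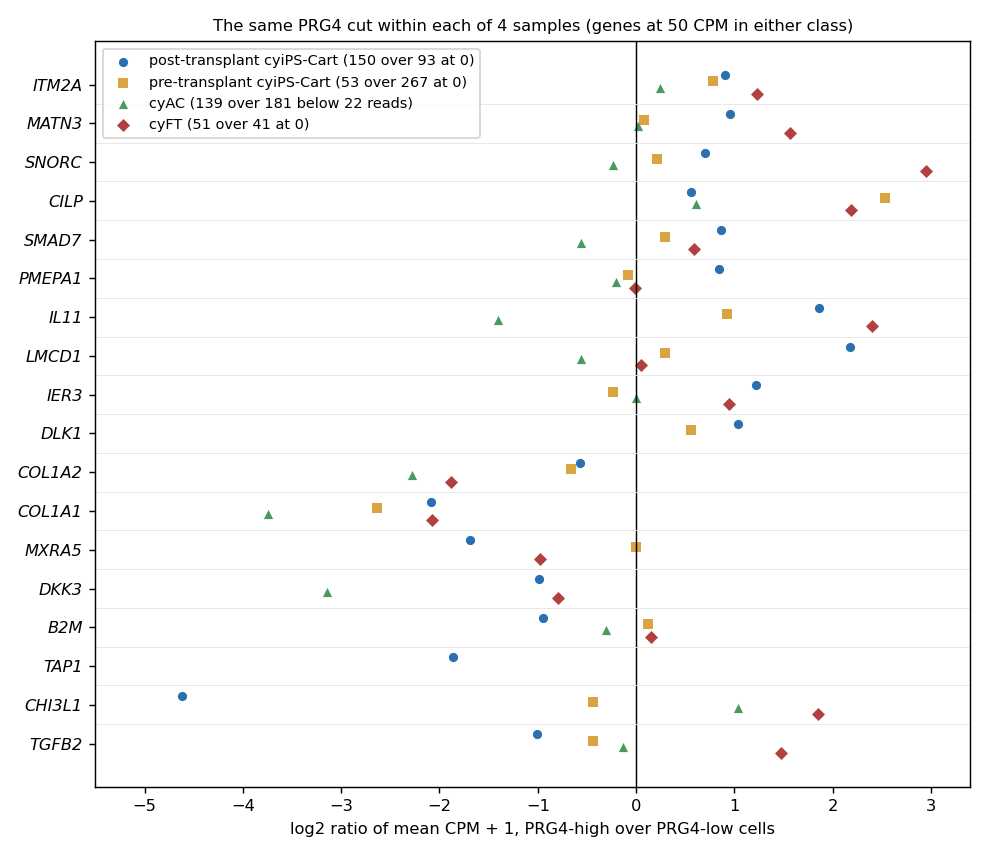
Log2 ratios of mean CPM + 1 between *PRG4*-high cells and cells at 0 (in cyAC, cells below 22 reads) within post-transplant cyiPS-Cart (circles), pre-transplant cyiPS-Cart (squares), cyAC (triangles) and cyFT (diamonds), for 18 named genes. A gene below 50 CPM in both classes of a sample has no symbol there. *COL1A1*, *COL1A2* and *CILP* lie on the same side of 0 in all 4 samples, *IL11*, *LMCD1*, *B2M* and *CHI3L1* on both sides.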

How the data were processed

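Transcriptomes of 5 samples in 3 TAS-Seq libraries were deposited, and 4 samples of 320 cells each were used here for comparison within samples, with the larger matrix for pre-transplant cyiPS-Cart and cyiPSC. The deposited values are raw read counts per gene and cell (14020 genes), for which the authors trimmed reads (cutadapt 3.4), matched them to Ensembl transcripts (cDNA and ncRNA) with Bowtie2 2.4.2 (versions from the submitters' processing notes), kept cells above the knee-plot inflection, split pooled samples by hashtag, set low counts to 0 in genes with a high maximum and left out cells rich in mitochondrial reads. No step that counts molecules is described, so counts were taken as reads. Which hashtag marks cyAC, cyFT, cyiPSC or pre-transplant cells follows the code supplied with the paper. The 3 hashtag libraries were not used here.

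Per-cell CPM over all listed genes was averaged over the cells of a class (Python 3.11.15, numpy 2.4.6, pandas 2.3.3, scipy 1.17.1, scanpy 1.11.5 for scrublet with 30 components), and log2 ratios were taken with a pseudocount of 1 over genes with 50 CPM in either class. Post-transplant *PRG4*-high, intermediate and *PRG4*-zero cells held 15765900, 7185566 and 6903954 reads. Named were *PRG4*, *GFP-polyA*, the 15 genes with the largest ratio in each direction that were detected in 25% or more of the cells of a class, the 4 largest of each of 32 gene lists, and members that explain a list. Among the genes that the rule names, 1 is not reported here. The members and lists were chosen with earlier results of these data known. The ratio and the thinning were tested on simulated counts. The simulated cells of a class shared a mean profile, so the simulation does not cover genes with reads in few cells. Alternatives, of which 18 were planned and 4 were chosen after seeing the data, were sums in place of means, edgeR 4.0.16 TMM factors on the deposited counts (R 4.3.3), other cuts, filters and pseudocounts, equal depth, and leaving out marked or *COL1A1*-positive cells. Mitochondrial share was limited to 3.11% in one of them.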

Additional observations from a re-analysis of the deposited data

Results flagged for a closer look

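In these genes the log2 ratio between *PRG4*-high and *PRG4*-zero cells passed 2-fold in one direction in post-transplant cyiPS-Cart and in the other in cyFT, each of them 1 sample, and the difference between the samples was not tested. *CCNH* stood at 1.32 in post-transplant cyiPS-Cart and -2.92 in cyFT, *ZBTB43* at -1.54 and 2.18, *CHI3L1* at -4.61 and 1.85, *TGFB2* at -1.01 and 1.47, and *IFI6* at -1.02 and 1.15. The *PRG4*-high and *PRG4*-zero cells of cyFT had medians of 36634 and 15648 reads, and whether depth has a part in these values was not tested.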

How the results depend on the processing

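The count of genes past 2-fold moved with the floor, the scaling and the cells taken. In place of 46 higher and 94 lower genes, sums of counts gave 55 lower and TMM factors 53 lower genes, CPM without *PRG4* and the 20 genes with most reads 79 and 151, depth-matched cells 110 and 178, a pseudocount of 10 29 and 51, a floor of 10 CPM 459 and 601, no floor 1152 and 1081, and reads in 25% of cells as a further filter 59 lower genes. Any *PRG4* read as the cut gave 29 higher genes, and cells below 22 reads as the comparison 17 and 33. Chosen after seeing the data, medians in place of means gave 150 and 4, leaving out cells with *COL1A1*, *CD74*, *CHI3L1* or *ISG15* reads 73 higher genes, and depth-matched cells without *COL1A1* reads 169 and 216. Under TMM factors the median ratio of all genes was 0.00 in place of -0.06. The higher genes were 32.9% of all those past 2-fold, and 97.4% with medians, which are 0 for many genes, 51.6% without a floor, 43.3% with 10 CPM and 43.01% with TMM. Of the 157 named genes, 30 changed sign among depth-matched cells without *COL1A1* reads, and 14 or fewer under each other alternative. Of those past 2-fold, *TAP1* (0.71), *CDC16* (0.14), *ISG15* (1.84) and *IFI6* (0.28) reversed among depth-matched cells without *COL1A1* reads, *ISG15* also among depth-matched cells (0.19), and *SSC5D* without *COL1A1* cells (0.0225) and without cells over the mitochondrial limit (0.0097). The cause was not tested. The other values of the named genes, over the 19 alternatives that can move a ratio, were 2756 that moved by 1.5 times or less and 220 that moved by more. No paired analysis was possible because each condition is 1 sample. With 150 and 93 cells of 1 library, differences in genes below 100 CPM are within reach of a few cells.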
